A study of Bos taurus with 6 samples.

Results

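The genes described here are 40 genes of epithelial cells: keratins, claudins and other tight junction proteins, desmosome proteins and plakins, adhesion proteins and regulators of epithelial transcripts. They were read in granulosa cells of the dominant preovulatory follicle of 3 aged (multiparous) and 3 young (nulliparous) Hereford cows. The genes were chosen by an earlier reading of the same aged and young signals, in which EPCAM, KRT19 and PPL were bright in some young cows, and were completed with genes of the same structures. What follows on the contrast of aged with young cows is therefore a description and supports no claim that these genes differ between the ages. Of the 40 genes, 39 had at least 1 probe on the bovine array (50 probes in all, among 43794 probes and 15216 named genes), and KRT15 had 0.

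Epithelial cells hold together through several structures. Keratins pair as type I and type II proteins into filaments, which desmosomes anchor at the cell border through desmoplakin, while claudins and occludin seal the space between cells in tight junctions. Simple epithelia use KRT8 and KRT18 with KRT7 and KRT19, whereas the basal and upper layers of stratified epithelia use pairs such as KRT5 with KRT14 and KRT4 with KRT13. Granulosa cells form the inner, epithelium-like lining of the follicle and are known for N-cadherin and vimentin as well as for some keratin.

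Every cow, aged and young, was given prostaglandin F2 alpha and then, on cycle day 6, 25 mg of luteinizing hormone (LH). Follicles were taken 24 h after LH, on day 7. RNA from 1 aged cow and 1 young cow was set side by side on each array, in the dyes Cy3 and Cy5. Aged cow 13 was paired with young cow 11, aged cow 110 with young cow 7, and aged cow 126 with young cow 184, each pair on 2 arrays with exchanged dyes. The labels mention mothers and daughters without tying them to the arrays, give no age in years, and state that the RNA was amplified before labelling. They allow for collection by aspiration or from a removed ovary and for storage frozen or in RNAlater, without saying which cow had which. The replicates are separate cows, so n = 3 pairs, and precision is limited by the small number of pairs.

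Some cows stood apart in markers of granulosa cells or leukocytes. The summed linear signal of 11 granulosa genes, inhibin and FSHR among them, was 165738, 133205 and 109825 units in aged cows 13, 110 and 126, against 7441, 118670 and 123807 units in young cows 11, 7 and 184, so that young cow 11 was far below the other 5 cows. For INHA, SERPINE2 and INHBA the aged-to-young ratio of pair 13 differed widely between its 2 arrays, and these sums use the average of both. The sum of 10 leukocyte genes was 3843, 6344 and 44212 units in the same aged cows, against 4934, 11076 and 12601 units in the young cows, highest in aged cow 126. Much of that sum came from TYROBP and LAPTM5, with log2 signals of 13.87 and 13.94 in aged cow 126. PTPRC, the pan-leukocyte gene, alone was not highest there, with 12.03 against 12.55 in young cow 7 and 12.32 in young cow 184. The part of these differences in the results was not tested. In such bulk RNA, fewer cells of a type and less RNA per cell cannot be told apart. The names of the scans carry a number that may mark the slide, which no label states. By it, both arrays of pair 13 and both of pair 110 would share 1 slide and those of pair 126 lie on others, each holding both ages.

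A level below is the log2 signal of a probe in a cow's channel after normalisation, averaged over both dyes, and compares cows for that probe only. The median probe had a level of 8.42 to 8.43 in each cow, close to non-specific signal. The background limit of a channel was set 2 SD over the mean of its 153 negative control spots, and 49.4% to 71.8% of probes lay above it. A gene is given by its brightest probe. It entered the fit where that probe was above background on every array in the channels of at least 1 age. This held for 22 of the 39 genes: 17 in both ages, 3 only through the aged channels (KRT7, KRT18 and PKP2) and 2 only through the young channels (EPCAM and DSP). The other 17 were measured but not tested. Of the 39 genes, 17 were above background in all 12 channels and KRT10 in 0. Another 5 (CDH1, KRT5, EVPL, PKP1 and JUP) were above it in 1 to 3.

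In the fit of log2(aged / young) by limma with Benjamini-Hochberg adjustment, 0 of the 22 genes tested had an adjusted p under 0.05, and neither did any other gene (0% of 8932 tested), the smallest adjusted p being 0.461. At an unadjusted p under 0.05, 1317 probes were higher and 843 were lower of 20595, and 3 of the 22 epithelial genes (PTPRF, PERP and S100A14) were lower, beside 4.00% of all tested genes. Of the 22, 9 were lower in the aged cow in all 3 pairs (16.1% of all tested genes) and 0 were higher in all 3 (22.6%). A level at least 4-fold lower in the aged cow was seen for 7 of the 22 in pair 13 (2.99%), for 9 in pair 110 (1.71%) and for 0 in pair 126 (0.369%). It was seen in both pairs 13 and 110 for 7 of them (0.918%), which were EPCAM, KRT8, KRT19, KRT78, CLDN4, ESRP1 and PPL. Since this contrast chose the genes, nothing is read from these shares. The median log2 ratio of the 22 was -0.97 (-1.29, -1.46 and -0.07 in pairs 13, 110 and 126), beside 0.06 over all tested genes, and that of all 39 was -0.40. Leaving out pair 13, with young cow 11, gave 10 of 22 lower in both remaining pairs and a median of -0.76, and leaving out pair 110 gave 9 and -0.59. Leaving out pair 126 gave 18 and -1.24, and treating the presumed slide as a random block moved the median to -0.55. With a pair left out, only 2 pairs had to be lower, which is met more easily than 3. Shares over all genes were not computed for these counts, and nothing is read from them.

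**Figure D1:**
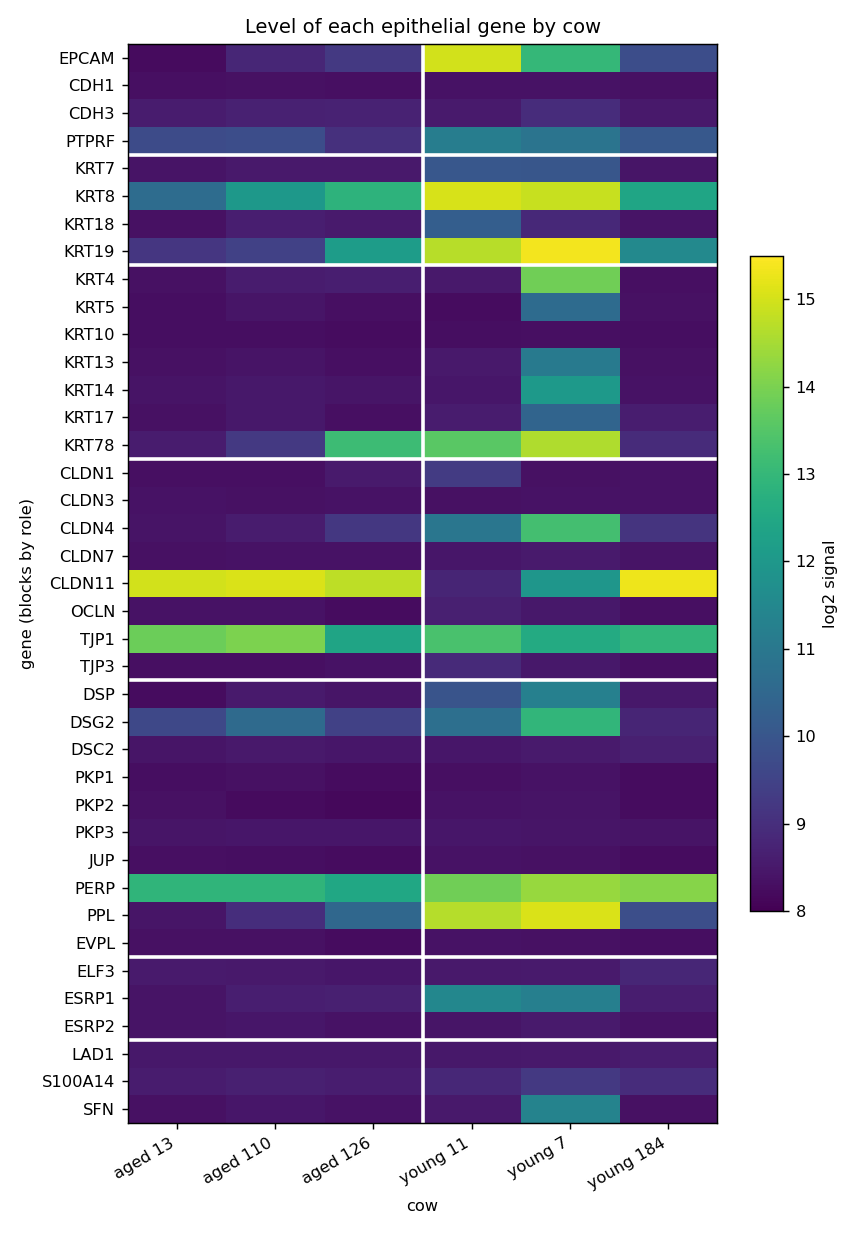
Log2 level (colour) of each of the 39 epithelial genes (down the page, in blocks by role) in aged cows 13, 110 and 126 and young cows 11, 7 and 184 (across, with the white line between the ages). EPCAM, KRT19 and PPL are bright in young cows 11 and 7, at levels of 12.98 to 15.38, the keratins KRT4, KRT5, KRT13 and KRT14 in young cow 7, and CLDN11 is dim in young cow 11.

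The plot of levels by cow shows wide differences between single cows of the same age. Of the 39, 17 spanned at least 2 log2 units over the 6 cows; their highest level was in young cow 7 for 12 genes, in young cow 11 for 4 and in young cow 184 for 1. Another 15 spanned less than 0.5 log2 units, with all levels between 8.17 and 8.94. The number above background in both channels of a cow was 23, 23 and 26 of 39 in aged cows 13, 110 and 126, against 33, 31 and 19 of 39 in young cows 11, 7 and 184. Young cow 184 had the fewest. Over all named genes these shares were 70.9%, 63.0% and 66.3% in the aged cows and 69.1%, 57.1% and 53.7% in the young cows, so the order of the cows was not the same for the epithelial genes.

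Among the adhesion proteins, EPCAM, the cell adhesion molecule that marks most epithelia, had levels of 8.23, 8.81 and 9.25 in aged cows 13, 110 and 126, against 15.00, 12.98 and 9.78 in young cows 11, 7 and 184. The 3 aged cows lay below the 3 young cows, but aged cow 126 and young cow 184 were close. The log2 ratios in pairs 13, 110 and 126 were -6.77, -4.18 and -0.53, with a mean of -3.82 ± 3.14 (SD, n = 3 pairs; limma adjusted p = 0.515). In scanner units, aged cow 13 read 239 in Cy3, under the background limit of 287 for that channel, and 255 in Cy5, over its limit of 237, against 35044 and 34519 in young cow 11 on the same arrays. The ratio of pair 13 thus includes an array on which EPCAM was not above background in the aged cow, and the array with aged cow 13 in Cy5 alone gave -6.57.

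The cadherins gave little signal. CDH1 (E-cadherin), the classical cadherin of epithelial adherens junctions, had levels of 8.31 to 8.33 in the aged cows, against 8.32 to 8.37 in the young cows, and passed the background limit in 0 of 6 aged and 2 of 6 young channels. CDH3 (P-cadherin), a related cadherin, had levels of 8.58, 8.70 and 8.71 in the aged cows, against 8.55, 8.94 and 8.52 in the young cows, and the ages overlapped (-0.01 ± 0.22). PTPRF, a receptor-type tyrosine phosphatase found at adherens junctions, had levels of 9.71, 9.76 and 9.05 in aged cows 13, 110 and 126, against 11.19, 10.87 and 10.07 in young cows 11, 7 and 184. The 3 aged cows lay below the 3 young cows, and the ratio was alike in the 3 pairs, at -1.47, -1.11 and -1.02 (mean -1.20 ± 0.24; limma adjusted p = 0.461).

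Of the keratins of simple epithelia, KRT8, the type II keratin, was bright in all 6 cows. Its levels were 10.64, 12.00 and 12.85 in aged cows 13, 110 and 126, against 15.03, 14.86 and 12.42 in young cows 11, 7 and 184. The ages overlapped, since aged cow 126 exceeded young cow 184, and the mean log2 ratio was -2.27 ± 2.46. KRT18, its type I partner, had levels of 8.33, 8.64 and 8.54 in the aged cows, against 10.24, 8.86 and 8.39 in the young cows. Young cow 11 stood well above the rest for KRT18, and the ratios were -1.90, -0.22 and 0.16. The partners KRT8 and KRT18 thus had unequal ratios on the same arrays, and KRT18 was close to the median probe in every cow other than young cow 11.

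KRT19, the smallest type I keratin, had levels of 9.20, 9.46 and 12.15 in aged cows 13, 110 and 126, against 14.69, 15.38 and 11.53 in young cows 11, 7 and 184. Young cows 11 and 7 were the brightest, and aged cow 126 lay above young cow 184, so that the ages overlapped (pair ratios of -5.49, -5.92 and 0.62; mean -3.59 ± 3.66). KRT7, a type II keratin of glandular epithelia, had levels of 8.38, 8.52 and 8.50 in the aged cows, against 10.03, 9.998 and 8.43 in the young cows. It too was above the median probe in young cows 11 and 7, while the other 4 cows lay close to it.

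**Figure D2:**
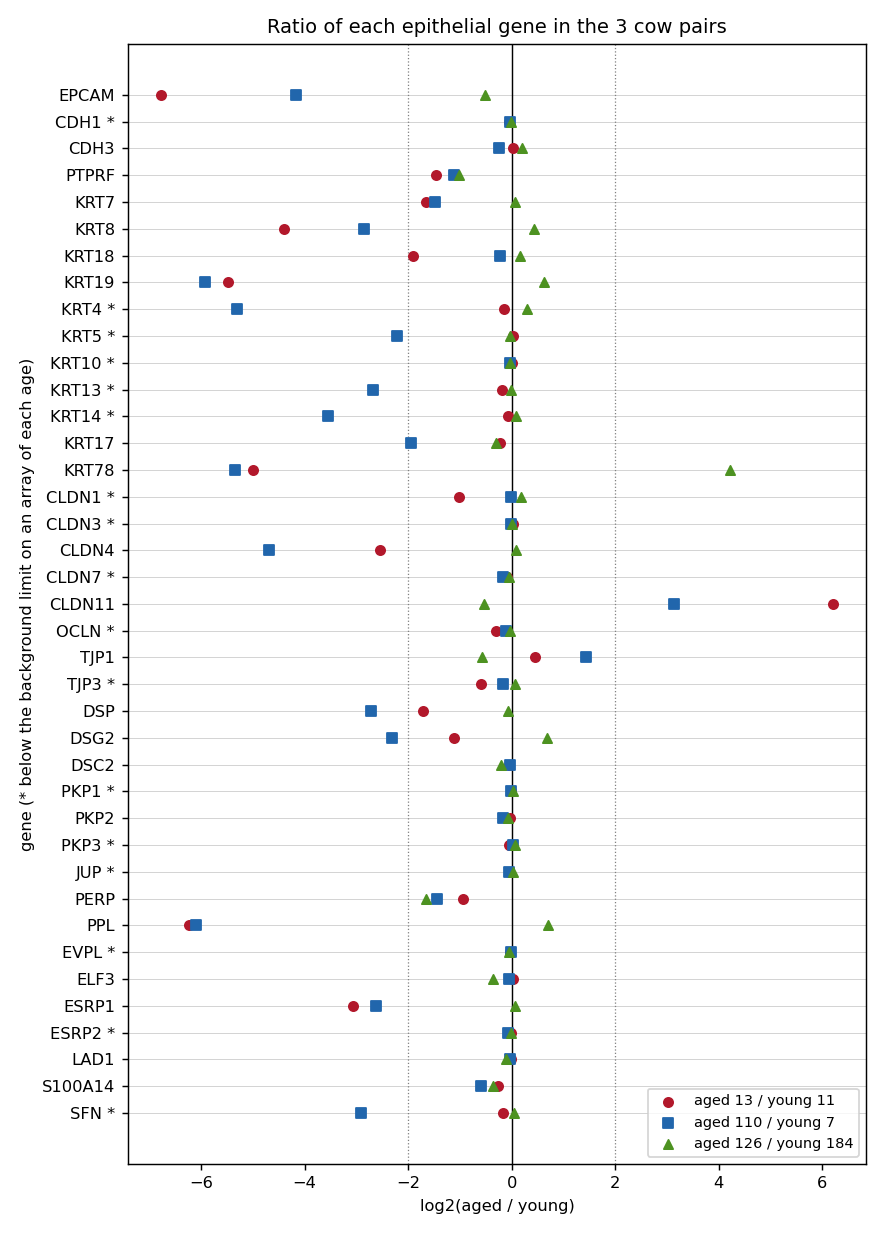
Log2(aged / young) (horizontal axis) of each epithelial gene (down the page; an asterisk marks the genes not tested) in the pairs of aged cows 13, 110 and 126, with 1 marker per pair. EPCAM, KRT19, PPL, KRT8 and ESRP1 have ratios between -6.77 and -2.62 in pairs 13 and 110 and between -0.53 and 0.70 in pair 126, and CLDN11 runs the other way in pairs 13 and 110.

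The keratins of stratified epithelia were mostly high in 1 cow. KRT14, the type I keratin of the basal layer, had levels of 8.38, 8.48 and 8.44 in aged cows 13, 110 and 126, against 8.45, 12.04 and 8.36 in young cows 11, 7 and 184. KRT5, its type II partner, had levels of 8.28, 8.41 and 8.31 in the aged cows, against 8.26, 10.63 and 8.34 in the young cows. For both, young cow 7 stood alone and the other 5 cows lay close to the median probe.

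KRT5 passed the background limit in 0 of 6 aged channels but in 2 of 6 young ones. Averaged over both arrays, it was 4.65-fold higher in young cow 7 than in aged cow 110. The log2 ratio was -2.51 with aged cow 110 in Cy5 and -1.93 with it in Cy3. Aged cow 110 was at background on both arrays, so this fold depends on its background signal. The mean ratio of KRT5 (-0.74 ± 1.28) rested on pair 110, since young cows 11 and 184 were above background in 0 channels, as the aged cows were, and it was -0.01 without that pair.

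KRT4 and KRT13, the pair of the upper layers of wet stratified epithelia, followed KRT5 and KRT14. KRT4 had levels of 8.35, 8.57 and 8.62 in aged cows 13, 110 and 126, against 8.51, 13.87 and 8.32 in young cows 11, 7 and 184. For KRT13 they were 8.33, 8.40 and 8.32 in the aged cows, against 8.53, 11.08 and 8.33 in the young cows. Young cow 7 was again the only cow far above the median probe. KRT13 was on average 6.40-fold higher in it than in aged cow 110, which was at background. Its log2 ratio was -2.82 with aged cow 110 in Cy5 and -2.54 with it in Cy3. KRT17, a type I keratin of appendages and stressed epidermis, had levels of 8.33, 8.48 and 8.31 in the aged cows, against 8.57, 10.42 and 8.61 in the young cows, also highest in young cow 7. The mean ratios of KRT4 (-1.72 ± 3.11) and KRT14 (-1.18 ± 2.06) rested on pair 110, and without it they were 0.07 and 0.00.

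KRT78 and KRT10 differed from these. KRT78, a type II keratin that is poorly characterised, had levels of 8.58, 9.26 and 13.13 in aged cows 13, 110 and 126, against 13.58, 14.60 and 8.92 in young cows 11, 7 and 184. It was high in 1 aged and 2 young cows, with ratios of -5.01, -5.34 and 4.22 (mean -2.04 ± 5.43), and was the 1 gene of the set at least 4-fold higher in aged cow 126 than in young cow 184. KRT10, a type I keratin of the upper epidermis, had levels of 8.25 to 8.29 in the aged cows and 8.28 to 8.31 in the young cows, all at background. In the RefSeq gene order (assembly ARS-UCD2.0), KRT18, KRT8 and KRT78 are direct neighbours, as are KRT13, KRT15 and KRT19. Neighbours did not share 1 pattern: KRT78 was high in aged cow 126 where KRT18 was close to the median probe, and KRT13 was close to it in young cow 11 where KRT19 was bright.

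Among the tight junction genes, CLDN4, a sealing claudin of many epithelia, had levels of 8.41, 8.58 and 9.22 in aged cows 13, 110 and 126, against 10.95, 13.27 and 9.14 in young cows 11, 7 and 184. Young cows 7 and 11 stood above the other 4, and pair 126 had a ratio of 0.08 (mean -2.38 ± 2.39). CLDN3, its direct neighbour in the genome, had levels of 8.34 to 8.37 in every cow and was above background in 4 of 6 aged and 2 of 6 young channels. CLDN1, a barrier claudin of epidermis, had levels of 8.30, 8.31 and 8.54 in the aged cows, against 9.31, 8.33 and 8.37 in the young cows, with young cow 11 highest. CLDN7 stayed between 8.34 and 8.54 in all 6 cows.

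CLDN11, a claudin known from myelin and from the Sertoli cells of the testis, had the opposite order. Its levels were 14.98, 15.07 and 14.76 in aged cows 13, 110 and 126, against 8.77, 11.93 and 15.30 in young cows 11, 7 and 184. Young cow 11 was the lowest and young cow 184 the highest, so that the ages overlapped, with ratios of 6.20, 3.14 and -0.54 (mean 2.93 ± 3.38; limma adjusted p = 0.591). The level of GATA4, a transcription factor of granulosa cells, was 13.33, 12.86 and 12.07 in the same aged cows and 8.80, 11.32 and 12.86 in the young cows, lowest in young cow 11 as CLDN11 was. TNFAIP6, a matrix protein that granulosa cells make after the LH surge, had levels of 14.99, 15.09 and 15.03 in the aged cows, against 8.90, 9.19 and 15.09 in the young cows. Other genes of the granulosa list, chosen after their values were seen, were not low in young cow 7. There INHA was at 15.06 and SERPINE2 at 14.99, close to their levels in the aged cows. INHBA had its highest level in young cow 7, at 15.40. All of these were lowest in young cow 11 on the average of its 2 arrays, which for 3 genes were unlike. With aged cow 13 in Cy3 and in Cy5, the log2 ratios of pair 13 were 2.43 and 6.83 for INHA. They were 2.11 and 6.65 for SERPINE2, and 2.30 and 6.93 for INHBA. INHA and INHBA were above background in only 1 of the 2 channels of young cow 11, so its rank for these genes is uncertain. The part of the granulosa markers in the CLDN11 values was not tested.

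The remaining tight junction genes varied less. TJP1 (ZO-1), the scaffold that links claudins to actin, was bright in every cow, at 13.81, 14.03 and 12.38 in aged cows 13, 110 and 126, against 13.36, 12.59 and 12.95 in young cows 11, 7 and 184, and the ages overlapped, with ratios of 0.45, 1.43 and -0.57. OCLN (occludin), the other sealing protein, had levels of 8.26 to 8.37 in the aged cows, against 8.67, 8.48 and 8.30 in the young cows. TJP3 (ZO-3), a scaffold of the same family, had levels of 8.30 to 8.38 in the aged cows, against 8.89, 8.47 and 8.32 in the young cows. Both were slightly above the median probe in young cow 11.

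In the desmosome group, DSP (desmoplakin), which ties keratin filaments to the plaque, had levels of 8.24, 8.55 and 8.42 in aged cows 13, 110 and 126, against 9.95, 11.28 and 8.49 in young cows 11, 7 and 184. Young cows 7 and 11 were above the rest, and the ratios were -1.71, -2.72 and -0.07 (mean -1.50 ± 1.34). DSG2, the desmosomal cadherin of simple epithelia, had levels of 9.64, 10.60 and 9.45 in the aged cows, against 10.75, 12.92 and 8.76 in the young cows. Young cow 184 was the lowest and young cow 7 the highest for DSG2, with the aged cows between them.

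The plaque proteins gave little signal. JUP (plakoglobin), which binds the desmosomal cadherins, had levels of 8.26 to 8.31 in the aged cows, against 8.24 to 8.35 in the young cows, and was above background in 1 of 6 channels of each age. DSC2, another desmosomal cadherin, stayed between 8.41 and 8.67, and the plakophilins PKP1, PKP2 and PKP3, which reinforce the plaque, between 8.17 and 8.46. None of these 5 genes followed DSP and DSG2 in young cows 11 and 7.

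PPL (periplakin), a plakin of the cornified envelope and of desmosomes, had levels of 8.43, 8.98 and 10.51 in aged cows 13, 110 and 126, against 14.66, 15.08 and 9.81 in young cows 11, 7 and 184. It had the ratios of -6.23, -6.10 and 0.70 (mean -3.88 ± 3.97), much like KRT19, with aged cow 126 above young cow 184. EVPL (envoplakin), which pairs with periplakin in epidermis, had levels of 8.24 to 8.34 in the aged cows, against 8.29 to 8.36 in the young cows, and was above background in 1 of 6 channels of each age.

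PERP, a tetraspan membrane protein of desmosomes, was bright in all cows, at 12.92, 12.90 and 12.47 in aged cows 13, 110 and 126, against 13.86, 14.34 and 14.13 in young cows 11, 7 and 184. The 3 aged cows lay below the 3 young cows, and PERP and PTPRF were the genes with a log2 ratio of about -1 or lower in every pair (PERP: -0.94, -1.44 and -1.67; mean -1.35 ± 0.37; limma adjusted p = 0.461).

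Among the regulators, ESRP1, a splicing regulator that keeps epithelial isoforms, had levels of 8.41, 8.62 and 8.65 in aged cows 13, 110 and 126, against 11.47, 11.24 and 8.59 in young cows 11, 7 and 184. It was thus far above the median probe in young cows 11 and 7 alone, with ratios of -3.06, -2.62 and 0.06 (mean -1.88 ± 1.69). ESRP2, its paralogue, stayed between 8.36 and 8.53. ELF3, an epithelial transcription factor, had levels of 8.45 to 8.54 in the aged cows, against 8.52, 8.55 and 8.82 in the young cows, highest in young cow 184.

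Of the other epithelial proteins, SFN (14-3-3 sigma), a cell cycle regulator of stratified epithelia, had levels of 8.34, 8.44 and 8.37 in aged cows 13, 110 and 126, against 8.51, 11.35 and 8.33 in young cows 11, 7 and 184. As for KRT5 and KRT14, young cow 7 alone was far above the median probe. S100A14, a calcium-binding protein, had levels of 8.57, 8.66 and 8.61 in the aged cows, against 8.83, 9.25 and 8.96 in the young cows, without overlap but within 1 log2 unit in all (-0.40 ± 0.17; limma adjusted p = 0.461). LAD1 (ladinin), an anchoring filament protein, stayed between 8.47 and 8.59.

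Genes at least 4-fold lower in the aged cow in pair 110 but not in pair 13 numbered 7 of the 39 (0.526% of all 15215 genes with a value in each pair), and 0 showed the reverse (1.52%). Nothing is read from these shares, since the contrast chose the genes. They were KRT4, KRT5, KRT13, KRT14, SFN, DSG2 and DSP, of which the last 2 had been tested. For DSG2 this depended on the probe, since a dimmer one had -5.62 in pair 13 and -3.55 in pair 110.

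**Figure D3:**
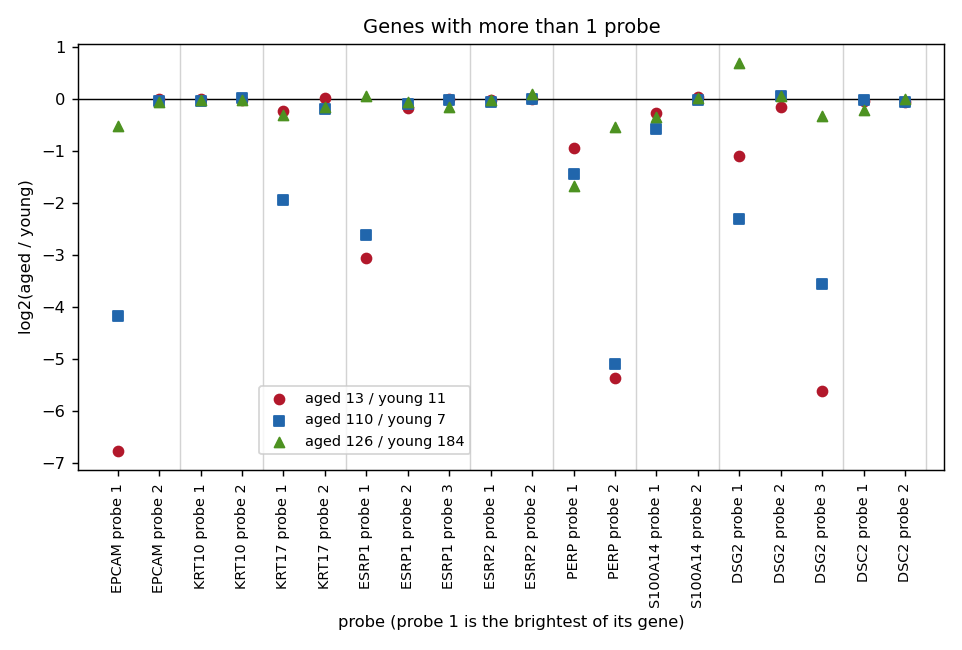
Log2(aged / young) (vertical axis) of every probe of the genes with more than 1 probe (across; probe 1 is the brightest), with 1 marker per cow pair. The second probe of PERP and the third of DSG2 have ratios of -5.37 and -5.62 in pair 13, beyond those of the brightest probes, while the second probe of EPCAM stays near 0.

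Probes of the same gene did not always give the same ratio, as the plot of probes shows. The brightest EPCAM probe had the large ratios above, whereas the second had levels of 8.42 to 8.45 in the aged cows, against 8.43 to 8.49 in the young cows, and ratios of 0.01, -0.03 and -0.05. For ESRP1, the other 2 probes were near background in all cows. The second S100A14 probe, which was not tested, had ratios of 0.04, -0.02 and 0.01 in pairs 13, 110 and 126. The second KRT17 probe had levels of 8.38, 7.18 and 8.49 in aged cows 13, 110 and 126, against 8.37, 7.38 and 8.64 in young cows 11, 7 and 184. Unlike the brightest KRT17 probe, it was not highest in young cow 7. A second PERP probe had levels of 8.33, 8.48 and 8.82 in aged cows 13, 110 and 126, against 13.70, 13.57 and 9.36 in young cows 11, 7 and 184. This probe followed the order of EPCAM, with ratios of -5.37, -5.09 and -0.54, where the brighter PERP probe differed by less than 2 log2 units in each pair. A dimmer DSG2 probe likewise had levels of 8.48, 8.62 and 8.88 in the aged cows, against 14.10, 12.18 and 9.21 in the young cows. The transcripts that these probes read were not analysed here.

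**Figure D4:**
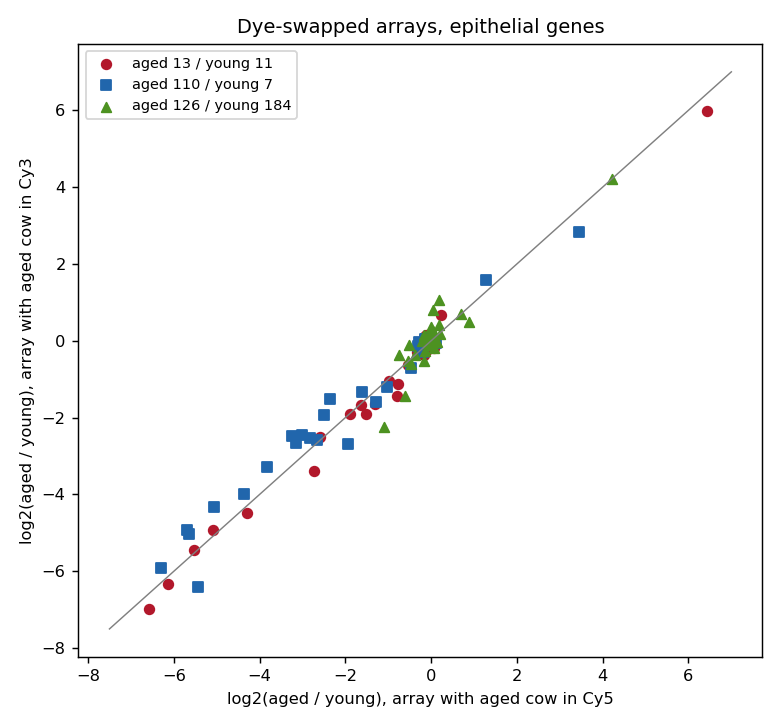
Log2(aged / young) of the 39 epithelial genes on the array with the aged cow in Cy5 (horizontal axis) and on the array with the aged cow in Cy3 (vertical axis), with 1 marker per gene and pair and the line of equal values. Points of pairs 13 and 110 run along the line from EPCAM in pair 13, whose Cy3 reading of aged cow 13 was under the background limit, past PPL (-6.14 and -6.32) to CLDN11 (6.44 and 5.97).

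The large ratios had the same sign on both dye orientations, as the plot of the dye swap shows. PPL had -6.14 with aged cow 13 in Cy5 and -6.32 with it in Cy3, KRT19 had -5.54 and -5.44, and CLDN11 had 6.44 and 5.97. Some bright genes were less alike: PERP had -1.10 with aged cow 126 in Cy5 and -2.23 with it in Cy3, and KRT19 had -5.44 with aged cow 110 in Cy5 and -6.40 with it in Cy3. Across the 39 genes the Pearson correlation of the dye-swapped arrays was 0.995, 0.984 and 0.919 in pairs 13, 110 and 126. Across all tested probes it was 0.847, 0.844 and 0.614. The Spearman correlation was 0.866, 0.924 and 0.679 for the 39, beside 0.651, 0.718 and 0.493. These are correlations across genes of the same 2 RNA extracts, and genes are not independent replicates. In pair 110 the median absolute difference between the arrays was larger for the 39 (0.241) than for all tested probes (0.161). The contrast chose the genes, so nothing is read from this comparison. In the authors' deposited table, the log2 ratios of EPCAM were -7.78, -4.56 and -0.22 in pairs 13, 110 and 126, and those of KRT19 were -5.79, -6.87 and 0.25. The authors' deposited table gives PPL at -6.88, -6.73 and 0.42, again with a different sign in pair 126.

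Other genes of the same structures, none of them among the 40, mostly gave little signal. The counts of these lists are small, and nothing is read from them. Of all tested genes, 16.1% were lower and 22.6% higher in all 3 pairs. Of 29 other keratins, 22 were measured and 11 tested, 2 of which were lower and 0 higher in all 3 pairs, with a median ratio of -0.03. KRT85, a hair keratin with the largest ratio among them, had -0.38 ± 0.51. Of 26 other tight junction genes, 23 were measured and 11 tested, with 2 lower and 0 higher in every pair and a median ratio of -0.04. The tight junction gene MARVELD3 had levels of 8.38, 8.60 and 9.60 in aged cows 13, 110 and 126, against 10.39, 9.44 and 8.67 in young cows 11, 7 and 184.

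CLDN10, a claudin of secretory epithelia that was not tested and was chosen after its values were seen, had levels of 8.25, 8.37 and 8.42 in the aged cows, against 13.02, 8.34 and 8.28 in the young cows, high in young cow 11 alone. Of 7 other desmosome genes, 6 were measured and 4 tested, with 3 lower in every pair (16.1% of all tested genes) and a median ratio of -0.22. Of these 3, DSG3 and DSG1 had small mean ratios of -0.22 and -0.21. Their pair ratios ran from -0.51 to -0.06 for DSG3 and from -0.52 to -0.02 for DSG1. PKP4, a plakophilin-related protein, had the largest ratio among these, with levels of 10.04, 8.94 and 9.04 in the aged cows, against 11.06, 11.80 and 9.49 in the young cows. Of 7 hemidesmosome genes, which anchor cells to the basement membrane, 5 were measured and 3 tested, 2 of them higher and 1 lower in all 3 pairs. DST (dystonin), a hemidesmosomal plakin with widely expressed isoforms, was among those higher in all pairs (0.96 ± 0.82).

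**Figure D5:**
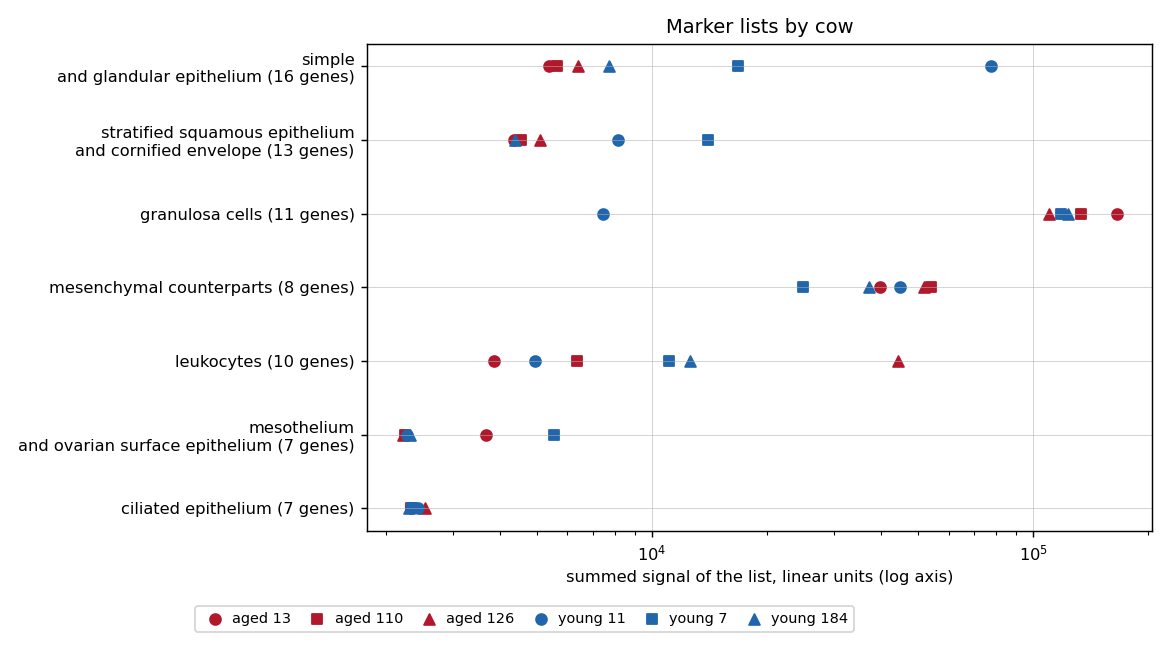
Summed linear signal (horizontal log axis) of marker lists of cell types (down the page, with the number of genes measured) in the 3 aged and 3 young cows, 1 marker per cow. Simple and glandular epithelium is highest in young cow 11 at 77405 units, stratified squamous epithelium in young cow 7 at 14020 units, leukocytes in aged cow 126, and granulosa cells are lowest in young cow 11.

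Marker lists of epithelia that shared no gene with the 40 had their highest sums in the same young cows. Much of each sum came from a few of its genes. The sum of 16 genes of simple and glandular epithelium was 5377, 5620 and 6387 units in aged cows 13, 110 and 126, against 77405, 16772 and 7709 units in young cows 11, 7 and 184. It was highest in young cow 11, and only 3 of the 16 genes were tested. These were FXYD3, a regulator of the sodium pump, AGR2, a protein disulphide isomerase of mucous cells, and SPINT2, a serine protease inhibitor. They were lower in all 3 pairs, beside 16.1% of all tested genes. AGR2 had levels of 8.19, 8.62 and 9.19 in the aged cows, against 15.02, 10.17 and 9.48 in the young cows. AGR2 and FXYD3 (14.79) were the brightest of the list in young cow 11. Of the genes not tested, chosen after their values were seen, MUC1, PRSS8 and KLF5 were also higher in young cows 11 and 7. EHF and MAL2 were slightly higher there. GRHL2, OVOL1, OVOL2, SPINT1, AP1M2, RAB25, TMPRSS2 and ST14 stayed between 8.15 and 8.59 in every cow.

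The sum of 13 genes of stratified squamous epithelium was 4356, 4546 and 5080 units in the aged cows, against 8159, 14020 and 4382 units in the young cows. Here young cow 7 was the highest, as for the keratins KRT4, KRT5, KRT13 and KRT14. Much of its sum came from GJB2, IVL (11.44) and S100A2 (11.30), the last 2 not tested and chosen after their values were seen. KRT6A and DSG3 were also highest there, at 9.43 and 9.12. SERPINB5 was high in young cow 11 (11.14) and not in young cow 7 (8.38). TGM1, TGM3, LORICRIN, CNFN, CALML5 and CSTA were close to the median probe in young cow 7. TP63, the transcription factor of basal cells, had levels of 8.55 to 8.70 in the aged cows, against 8.57 to 8.74 in the young cows. GJB2 (connexin 26), a gap junction protein, had levels of 8.27, 8.43 and 9.28 in the aged cows, against 9.71, 12.19 and 8.57 in the young cows, with young cow 7 highest.

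Lists of other linings were not high in both young cows 11 and 7. The sum of 7 genes of ciliated epithelium was 2335, 2335 and 2545 units in aged cows 13, 110 and 126, against 2427, 2351 and 2305 units in young cows 11, 7 and 184. For 7 genes of mesothelium and ovarian surface epithelium it was 3660, 2248 and 2223 units in the aged cows, against 2280, 5526 and 2322 units in the young cows, and 3 of the 7 were above background in 0 channels. CALB2 (calretinin) was the only 1 of them tested, with levels of 10.78, 8.48 and 8.51 in the aged cows, against 8.52, 11.82 and 8.53 in the young cows.

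Of 8 genes of the mesenchymal counterparts of these proteins, 3 were tested, and they did not share an order. VIM (vimentin), the filament protein of mesenchymal and granulosa cells, had levels of 15.01, 15.12 and 14.98 in aged cows 13, 110 and 126, against 12.17, 12.68 and 14.65 in young cows 11, 7 and 184. CDH2 (N-cadherin) had levels of 11.74, 12.59 and 11.18 in the aged cows, against 8.48, 11.05 and 12.61 in the young cows. The vimentin levels of young cows 11 and 7 were the lowest, and CDH2 was close to the median probe in young cow 11. FN1 (fibronectin), a matrix protein, had levels of 10.61, 13.37 and 13.87 in the aged cows, against 15.22, 13.83 and 11.76 in the young cows, and was highest in young cow 11. The part of these cell types in the values of the 40 genes was not tested.

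Genes outside the 40 with the order of EPCAM over the 6 cows were ranked by Pearson correlation with it, among 223 tested genes that spanned at least 4 log2 units. The points share arrays by pair, the range limit itself favours genes that are very high or low in 1 or 2 cows, and the ranking is a description. The closest was TMEM125, a membrane protein of little known function, at r = 0.996. It had levels of 8.31, 8.48 and 8.81 in aged cows 13, 110 and 126, against 13.16, 11.53 and 8.89 in young cows 11, 7 and 184.

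Next came TSPAN1 (a tetraspanin, 0.994), WWC1 (KIBRA, a Hippo pathway protein, 0.992), FXYD3 (0.991), the homeobox gene HOXB4 (0.989) and the receptor ERBB3 (0.985). SLC44A4 (a choline transporter, 0.978), GIPC2 (a PDZ protein, 0.968), the peptidase ANPEP (0.966) and the retinaldehyde dehydrogenase ALDH1A1 (0.958) completed the 10. ALDH1A1 also stood in the theca list, and each of the 10 was highest in young cow 11 or 7. Of the 40 genes themselves, ESRP1 (0.970), KRT7 (0.958), PPL (0.949), KRT8 (0.935) and KRT19 (0.90) ran closest to EPCAM among those tested, KRT14 had 0.43, and CLDN11 had -0.96. ESRP1 and KRT7 spanned only 3.06 and 1.65 log2 units, under the limit set for the outside genes. Of the 7 other tested genes of the 40 within that limit, 2 (PPL and KRT8) had r over 0.9, beside 23 of the 223 outside genes (10.3%). The set was chosen in part because EPCAM and PPL were bright in some young cows, so nothing is read from these shares.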

How the data were processed

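The 6 arrays of 2 colours were deposited as scanner files with the intensity of each spot and its local background, not normalised, per the file headers. A table of log2 processed values was deposited too. Limma is named in the submitters' processing notes, and further steps are not given in the sources used here. All 6 columns of that table ran as aged over young (r of 0.819 to 0.939 with the scanner ratios, medians of -0.0092 to 0.0036); its background correction and filter stay unknown.

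Spot means were corrected by normexp (offset 50) and normalised by loess within arrays in limma 3.58.1 (R 4.3.3), with control and ignored spots at weight 0. Ratios were turned to log2(aged / young), the 2 dye-swapped arrays of a pair were averaged, and 3 pair values were fitted by lmFit and eBayes, two-sided, with Benjamini-Hochberg adjustment over 20595 of 43794 probes (threshold 0.05). The pairing is given by the arrays, which hold both cows of a pair; the consensus correlation within a pair was 0.80. A probe was kept when above the mean + 2 SD of the negative controls on all arrays in at least 1 age. Levels are channel signals after loess and Aquantile. The files carry no saturation flag. The fit was also run on simulated data, and nothing is read from that run here. Its power to find a change with 3 pairs is not given.

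Probes were named through the platform annotation: 21790 have 1 symbol and 22004 none here. Of 15229 symbols, 14114 stood in RefSeq's table (ARS-UCD2.0) and 982 were updated through a synonym. The annotation names no build, so no coordinates are given, and promoter or probe sequences were not analysed here. The genes, lists and tests were chosen with earlier results of these data known. Named genes are all members, the 10 genes most like EPCAM, and up to 4 tested genes of each list with the largest absolute ratio; others are said to be chosen after their values were seen.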

Additional observations from a re-analysis of the deposited data

How the results depend on the processing

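Of 17 other settings, 16 left the number of probes past the limma threshold at 0 in each. The exception was the fit with no replicate block, which counts the paired arrays as 6 independent samples and gave 362 probes (1.76%), PTPRF (adjusted p = 0.029) and PERP (adjusted p = 0.039) among them. Cow pair as a random replicate block with a dye term changed no call. Genes lower in all pairs, 9 of 22 here, numbered 15 of 39 with no filter on dim probes, beside 18.1% of all measured genes. They numbered 15 of 37 with probes above background in at least 2 of 12 channels, an alternative chosen after seeing the data. More genes were counted in both. They numbered between 9 and 18 when 1 pair was left out (18 without pair 126), where only 2 pairs had to be lower. Shares over all genes were not computed for the other settings. With the ignored negative control spot kept, also added after seeing the data, 18 genes were tested and 7 were lower. The median kept its sign under every setting, from -0.40 (no filter) to -1.24 (without pair 126). Of 663 gene values under these settings, 614 moved by less than 1 SD between pairs, 37 moved further in the same direction and 12 reversed, all in 7 genes near background; the cause was not tested. With spot medians KRT10 had 0.15, CLDN3 -0.22, EVPL 0.057 and PKP2 0.012. With the authors' deposited table KRT10 had 0.17 and CLDN3 -0.24. Median centring gave CLDN3 -0.016. Aged cows in Cy5 alone gave CLDN3 -0.051, EVPL 0.037 and PKP1 0.048. Aged cows in Cy3 alone gave LAD1 0.046 and PKP3 -0.082. Of the 15 genes with an absolute mean ratio of at least 1, KRT4 and KRT14 alone changed sign, without pair 110 (0.07 and 0.00). Genes close to the negative controls have no reliable order, and 3 pairs limit every statement on age.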
